A study of Homo sapiens with 32 samples.

Results

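The type II cadherin genes CDH6, CDH7, CDH8, CDH9, CDH10, CDH11, CDH12, CDH18, CDH19 and CDH20 were followed in the uracil maps of 15 libraries. Each gene was taken as its GENCODE gene body with 50 kb on each side, called its window below, and these 10 windows are part of 20033 protein-coding gene windows. The genes were chosen by the covered share and log2 value of their regions in these libraries, with the difference between drug-treated and non-treated cells in view, so that this difference is given as a description and was not tested. U-DNA-Seq pulls down fragmented genomic DNA with ΔUNG, a FLAG-tagged uracil-DNA glycosylase that binds uracil but does not cut it, and sequences it beside its input DNA. The values are the share of a window covered by the deposited regions of uracil enrichment, and the log2 value (enriched over input) that each region carries.

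The colorectal carcinoma line HCT116, which is deficient in mismatch repair (MMR), gave 14 libraries from 7 conditions with 2 biological replicates each. The 6 non-treated libraries are WT (no drug, no transgene), NT_UGI (no drug, expressing UGI, which blocks uracil-DNA glycosylase) and NT_UGI_MMR (the same in MMR proficient HCT116 cells, which carry an added chromosome 3). The 8 drug-treated libraries are 5FdUR_UGI and 5FdUR_UGI_MMR (20 µM 5-fluoro-2'-deoxyuridine for 48 h), and RTX_UGI and RTX_UGI_MMR (100 nM raltitrexed for 48 h). All drug-treated cells thus expressed UGI, which was brought in together with EGFP by a retrovirus, and EGFP positive cells were sorted. No drug-treated library was made without UGI, so that drug and UGI cannot be told apart from drug alone in these libraries. K562, a human chronic myelogenous leukemia line, gave 1 library of non-treated wild type cells and therefore has no replicate check. The deposited regions of a library covered 10.9% to 11.3% of the genome in the non-treated and K562 libraries and 17.1% to 18.9% in the drug-treated libraries. The lowest log2 value of a region, which reflects the threshold the authors set for each library, lay between 0.25 and 0.33 without drug, was 0.25, 0.14, 0.20 and 0.13 in 5FdUR_UGI replicates 1 and 2 and 5FdUR_UGI_MMR replicates 1 and 2, and lay between 0.25 and 0.27 after RTX. The region files hold no read counts, so the depth behind a value is unknown and the spread between libraries is the only error given.

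Cadherins are calcium-dependent adhesion proteins of the cell surface. Their extracellular repeats bind cadherins of the neighbouring cell, and their cytoplasmic tails hold catenins, which link them to the actin cytoskeleton. Type II cadherins differ from the type I, or classical, cadherins in the adhesive interface of the outermost repeat, and many of them are known for sorting neurons and for synapse formation. Uracil can enter DNA in place of thymine, when dUMP is incorporated, or by deamination of cytosine, and uracil-DNA glycosylase removes it. 5FdUR (through its monophosphate) and RTX inhibit thymidylate synthase, which provides the thymidylate for DNA synthesis. The authors state that 5FdUR is also built into DNA itself, and that their method detects fluorouracil as well as uracil. Regions after 5FdUR can therefore hold either. No RNA was measured in the files used here, so nothing below speaks of the expression of these genes.

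The members lie in groups on 3 chromosomes (GRCh38, GENCODE 44). On the short arm of chromosome 5 are CDH18 (chr5:19471296-20575873, minus strand), CDH12 (chr5:21750673-22853344, minus strand), CDH10 (chr5:24487100-24644978, minus strand), CDH9 (chr5:26880597-27121150, minus strand) and CDH6 (chr5:31193686-31329146, plus strand). CDH8 (chr16:61647242-62037035, minus strand) and CDH11 (chr16:64943753-65126112, minus strand) lie on chromosome 16. CDH20 (chr18:61333430-61555779, plus strand), CDH7 (chr18:65750252-65890337, plus strand) and CDH19 (chr18:66501083-66604138, minus strand) lie on chromosome 18. Gene bodies ranged from 103056 bp in CDH19 to 1104578 bp in CDH18. Exons made up 0.512% of the body of CDH12 and 10.4% of that of CDH7, the lowest and highest of the 10. No other protein-coding gene body overlapped any of the 10 windows. Other members of the type II class, CDH5, CDH22 and CDH24, are not among the 10 and are described further below.

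Sequences of 2 segments are shown because they carry the contrast described below. On chromosomes 5 and 16, the stretch of at least 2 kb that regions covered in all 6 non-treated HCT116 libraries and in K562, and in no drug-treated library, was taken at its highest mean log2 value, and its central 300 bases are printed. Both are read from GRCh38 on the plus strand, 5′ to 3′, and capitals mark G and C.
CDH9 segment, chr5:27067001-27067300: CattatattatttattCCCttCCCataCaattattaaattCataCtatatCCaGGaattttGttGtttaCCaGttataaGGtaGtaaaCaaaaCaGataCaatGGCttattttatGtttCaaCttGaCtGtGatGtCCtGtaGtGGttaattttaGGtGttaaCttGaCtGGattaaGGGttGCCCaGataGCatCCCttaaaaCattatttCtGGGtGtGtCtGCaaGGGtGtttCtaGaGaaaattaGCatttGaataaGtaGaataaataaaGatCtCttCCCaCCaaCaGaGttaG
CDH8 segment, chr16:61743351-61743650: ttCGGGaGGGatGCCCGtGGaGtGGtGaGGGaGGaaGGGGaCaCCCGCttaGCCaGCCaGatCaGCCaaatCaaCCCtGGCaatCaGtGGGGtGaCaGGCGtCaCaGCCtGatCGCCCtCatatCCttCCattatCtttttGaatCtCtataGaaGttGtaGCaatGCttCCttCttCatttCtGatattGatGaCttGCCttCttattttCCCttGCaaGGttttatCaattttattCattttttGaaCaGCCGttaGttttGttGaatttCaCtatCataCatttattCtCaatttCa
The CDH9 segment lies in the gene body, 54.0 kb from the gene start, in a stretch of 2500 bp whose regions carried a log2 value of 0.57 on average over the 6 libraries (0.44 to 0.66) and 0.65 in K562. The CDH8 segment lies in the gene body, 293.5 kb from the start, in a stretch of 2200 bp with a mean log2 value of 0.49 (0.40 to 0.60), and 0.53 in K562. The GC content of these 2 stretches was 33.04% and 32.7%. The 300 bases themselves hold 98 (CDH9) and 128 (CDH8) G or C. Stretches that met this rule numbered 61 on chromosome 5, 4 on chromosome 16 and 6 on chromosome 18, and none of them was in CDH6, CDH11 or CDH20.

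Without drug, regions of uracil enrichment covered between 6.75% (CDH20) and 62.4% (CDH19) of a member window on average. The order of the means was CDH19, CDH9, CDH10, CDH18, CDH12, CDH7, CDH8, CDH6, CDH11 and CDH20. CDH19, a cadherin of glia and Schwann cell precursors, was covered to 62.4% ± 9.07 (SD, n = 6), with a lowest value of 53.2%, a median of 58.7% and a highest value of 75.5%. CDH9, a neural cadherin, was covered to 51.5% ± 4.17 (SD, n = 6; 44.05% to 55.3%), and CDH10, found mainly in the brain, to 49.95% ± 7.52 (SD, n = 6; 36.2% to 56.3%). CDH18 and CDH12, also known from the brain, were covered to 45.1% ± 2.52 and 38.4% ± 3.02 (SD, n = 6), and CDH7 to 34.0% ± 5.66 (SD, n = 6). CDH8, a cadherin of neural circuits, reached 21.2% ± 3.03 (SD, n = 6). The lowest levels were those of CDH6, known from kidney and neural crest, at 7.50% ± 2.16, of CDH11, the cadherin of mesenchyme and osteoblasts, at 6.96% ± 2.19, and of CDH20, at 6.75% ± 3.12 (SD, n = 6). Among neighbours in this order, the ranges of the 6 libraries were separate only between CDH8 (lowest 17.05%) and CDH6 (highest 10.1%). All other neighbours overlapped, although CDH19 was above CDH9, CDH18 above CDH12, and CDH7 above CDH8 in each of the 6 libraries. CDH6, CDH11 and CDH20 did not differ beyond their spread. Of all 20033 windows, the median mean coverage was 0.783%, and CDH19 stood between the 99.9 and 99.995 percentile ranks of its library and CDH20 between the 66.3 and 85.5 percentile ranks.

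The K562 library showed a like order, with 60.5% for CDH9, 52.8% for CDH18, 52.6% for CDH10, 51.8% for CDH19, 45.2% for CDH12, 29.5% for CDH7 and 24.9% for CDH8. It had 13.3% for CDH6, 6.09% for CDH11 and 4.19% for CDH20. The K562 value lay above all 6 HCT116 values for CDH9, CDH12, CDH18 and CDH6, and below all 6 for CDH19. K562 regions fell largely on bases that HCT116 regions held too. Of the bases covered in K562, between 71.9% (CDH6) and 99.0% (CDH7) were covered in at least 1 non-treated HCT116 library. These shares follow in part from how much of a window was covered in at least 1 of these libraries. That was 20.9% in CDH6, 73.4% in CDH7 and 88.7% in CDH19, where the K562 overlap was 96.6%. Of the bases covered in all 6 HCT116 libraries, K562 held 94.3% in CDH9, 93.5% in CDH18, 92.4% in CDH8, 92.1% in both CDH10 and CDH12, 76.8% in CDH19 and 75.4% in CDH7.

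The position of regions within a window was shared in part between the non-treated libraries. In CDH19, 25.1% of the window was covered in all 6 libraries and 11.3% in none. In CDH9 these shares were 21.7% and 20.1%, and in CDH18 16.2% and 23.8%. CDH12, which was covered less than CDH18 in each library, had 7.88% of its window in all 6 libraries, and 26.8% in none. In CDH6 and CDH11 no base was covered in all 6 libraries, and 79.1% and 74.9% of the window was covered in none. In CDH20 a single run of 300 bp was covered in all 6. The longest run of bases held by all 6 libraries was 9400 bp in CDH19, 8600 bp in CDH18 and 7400 bp in CDH10. The longest single region was found in NT_UGI replicate 1, with 35700 bp in CDH19 and 30900 bp in CDH18.

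**Figure D1:**
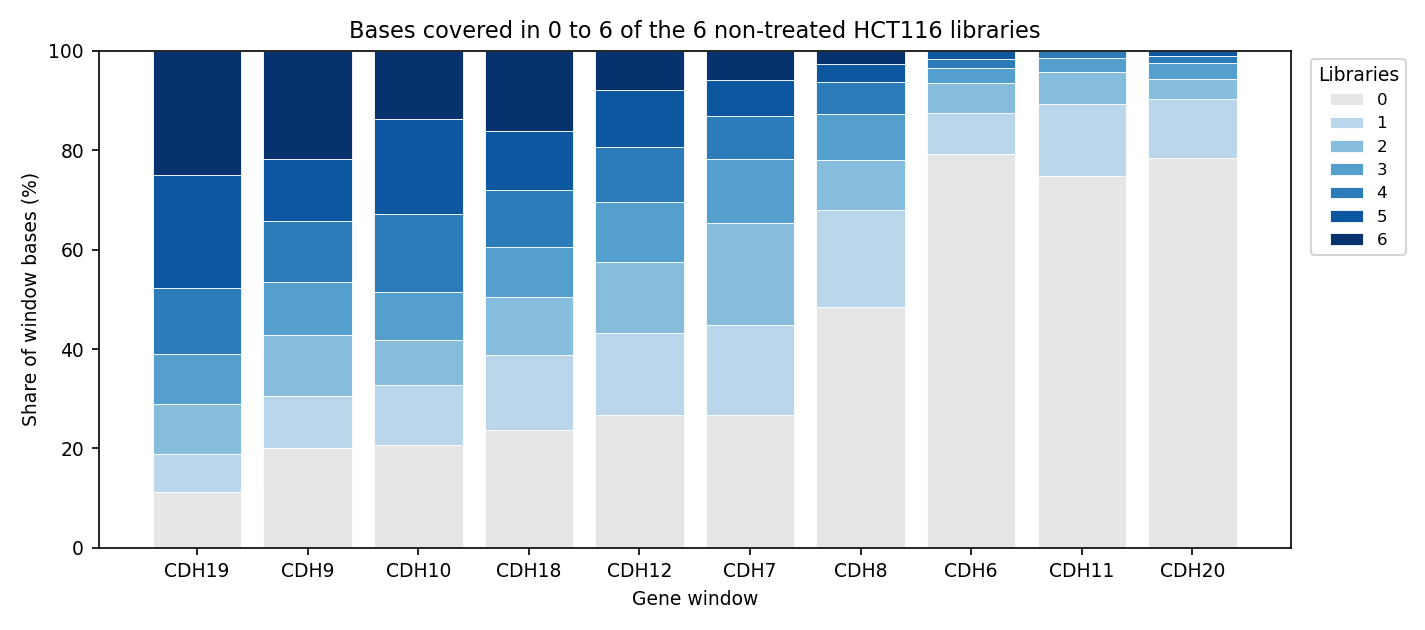
Share of the bases of each gene window (vertical axis, %) that regions covered in 0 to 6 of the 6 non-treated HCT116 libraries (colour, darker for more libraries). The darkest layer, bases covered in all 6, falls from 25.1% in CDH19 to 2.67% in CDH8 and is at 0 in CDH6 and CDH11.

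Parts of the genes were covered unequally. The gene body was covered more than the flanks in all 6 non-treated libraries in CDH19 (74.8% ± 7.39 against 49.7% ± 11.6, SD, n = 6), CDH10 (60.5% ± 8.51 against 33.2% ± 9.33), CDH8 (22.9% ± 3.37 against 14.4% ± 3.27) and CDH20 (9.53% ± 4.73 against 0.567% ± 1.16). In CDH11 the body was lower, at 4.15% ± 2.41 against 12.1% ± 5.46 (SD, n = 6), and above the flanks in 1 of 6 libraries. In CDH9 and CDH7, exons were covered more than introns in 6 of 6 libraries, to 73.3% ± 13.5 against 52.6% ± 4.84 and to 57.3% ± 8.98 against 32.6% ± 4.74 (SD, n = 6). In CDH6 and CDH20 exons were below introns in 6 of 6 libraries, at 3.05% ± 3.06 against 9.19% ± 1.76 and at 0.955% ± 1.49 against 9.70% ± 4.83 (SD, n = 6). As the coverage tracks were smoothed, an exon shares its value with the intron sequence around it, and none of these differences was tested.

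The members also differed at the gene start. Within 5 kb on each side of the GENCODE start, CDH19 was covered to between 71% and 100% (median 97.2%) in the 6 non-treated libraries and to 100% in K562. CDH18 had 30.01% to 77.3% (median 40.5%) and CDH10 17.2% to 91.2% (median 30.2%). CDH7, CDH8, CDH11 and CDH20 had a median of 0, and CDH20 had no region there in any non-treated library. RefSeq promoter sequences (250 bases before to 50 bases after the RefSeq start, GRCh38.p14, strand of the gene) were matched for 8 of the 10 members, all but CDH6 and CDH11. In CDH9, CDH12 and CDH18 the RefSeq start lies 82564, 963497 and 689601 bp from the GENCODE start, so that these promoters are not the starts described above. The promoters of CDH19, CDH20 and CDH7 are shown, as they were covered in different libraries, with G and C in capitals.
CDH19 promoter, chr18:66604041-66604340, minus strand: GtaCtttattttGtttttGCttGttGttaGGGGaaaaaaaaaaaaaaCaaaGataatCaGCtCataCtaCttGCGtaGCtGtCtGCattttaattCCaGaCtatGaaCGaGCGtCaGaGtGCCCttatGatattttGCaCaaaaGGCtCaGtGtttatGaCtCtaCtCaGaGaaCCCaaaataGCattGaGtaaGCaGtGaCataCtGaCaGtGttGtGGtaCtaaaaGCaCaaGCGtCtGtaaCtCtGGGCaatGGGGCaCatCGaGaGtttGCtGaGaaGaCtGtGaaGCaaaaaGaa
CDH20 promoter, chr18:61333180-61333479, plus strand: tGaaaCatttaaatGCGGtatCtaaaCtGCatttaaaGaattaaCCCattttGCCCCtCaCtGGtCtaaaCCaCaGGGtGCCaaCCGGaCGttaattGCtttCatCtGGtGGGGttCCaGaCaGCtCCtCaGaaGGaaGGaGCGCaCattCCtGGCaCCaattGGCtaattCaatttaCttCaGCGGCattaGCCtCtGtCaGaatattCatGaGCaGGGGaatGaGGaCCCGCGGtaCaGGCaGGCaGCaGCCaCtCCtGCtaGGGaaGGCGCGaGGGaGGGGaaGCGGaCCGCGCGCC
CDH7 promoter, chr18:65750762-65751061, plus strand: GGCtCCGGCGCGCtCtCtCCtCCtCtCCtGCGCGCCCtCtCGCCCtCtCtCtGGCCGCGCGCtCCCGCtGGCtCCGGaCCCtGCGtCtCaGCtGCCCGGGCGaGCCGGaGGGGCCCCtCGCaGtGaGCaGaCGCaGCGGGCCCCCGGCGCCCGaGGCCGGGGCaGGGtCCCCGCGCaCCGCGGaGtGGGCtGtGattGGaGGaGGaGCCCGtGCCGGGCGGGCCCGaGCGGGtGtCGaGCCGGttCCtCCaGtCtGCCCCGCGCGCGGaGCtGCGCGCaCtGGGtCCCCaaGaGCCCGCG
Regions held at least 50% of the CDH19 promoter in all 6 non-treated libraries and K562, and in no drug-treated library. The CDH20 promoter was held in 5FdUR_UGI replicate 2 and 5FdUR_UGI_MMR replicate 2 and in no other library, and the CDH7 promoter in 5FdUR_UGI replicate 2 alone. These promoters hold 118, 157 and 235 G or C and 5, 13 and 41 CpG dinucleotides. The promoter of CDH8, with 191 G or C and 19 CpG, was held in none of the 15 libraries. In 5FdUR_UGI replicate 2 the 10 kb around the GENCODE start was covered to 59.5% in CDH7, 46.0% in CDH20, 37.9% in CDH11 and 34.0% in CDH9, against 4.17%, 4.498%, 3.01% and 5.14% of their whole windows. In the same library it was covered to 6.0% in CDH10, against 5.002% of its window, and held no region in CDH6, CDH8, CDH12, CDH18 and CDH19. Replicate 1 of the same condition, where the lowest log2 value of a region was 0.25 and not 0.14, had no region there in any member.

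After drug treatment, few regions lay in most of these windows. For 8 of the 10 members (CDH7, CDH8, CDH9, CDH10, CDH11, CDH12, CDH18 and CDH19), every drug-treated HCT116 library was covered less than every non-treated one, and no member was covered more in every drug-treated library. Over all 20033 windows, 1202 windows, or 6%, were lower in every drug-treated library, and 6110 windows were higher in every one. Since this contrast helped to choose the genes, nothing is read from the excess of lower members or the lack of higher ones. The value of 0 was found in 36 of 40 values of the members after RTX and in 15 of 40 after 5FdUR. CDH19 was covered to 0, 4.24, 0 and 1.63% in 5FdUR_UGI replicates 1 and 2 and 5FdUR_UGI_MMR replicates 1 and 2, and to 2.36, 0, 0 and 0% in the RTX_UGI and RTX_UGI_MMR libraries in the same order. CDH18 was covered to 0, 3.81, 0.407 and 1.013% after 5FdUR and to 0.0166, 0, 0 and 0% after RTX. CDH9 was covered to 0, 5.14, 0 and 2.06% after 5FdUR and to 0.440, 0, 0 and 0% after RTX. The highest drug-treated values of these genes were thus below their lowest non-treated values of 53.2%, 41.5% and 44.05%. CDH11 was the member just inside this separation, with a highest drug-treated value of 4.002% (5FdUR_UGI_MMR replicate 2) and a lowest non-treated value of 4.53%. With the gene body alone or with regions of at least 5 kb, CDH11 was no longer separated and the count was 7. CDH20 and CDH6 were outside it. In 5FdUR_UGI_MMR replicate 2, CDH20 had 20.3% against 2.61% to 10.3% without drug, and CDH6 had 23.2% against 4.42% to 10.1%. Without both 5FdUR_UGI_MMR libraries, CDH6 was separated too and the count was 9.

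**Figure D2:**
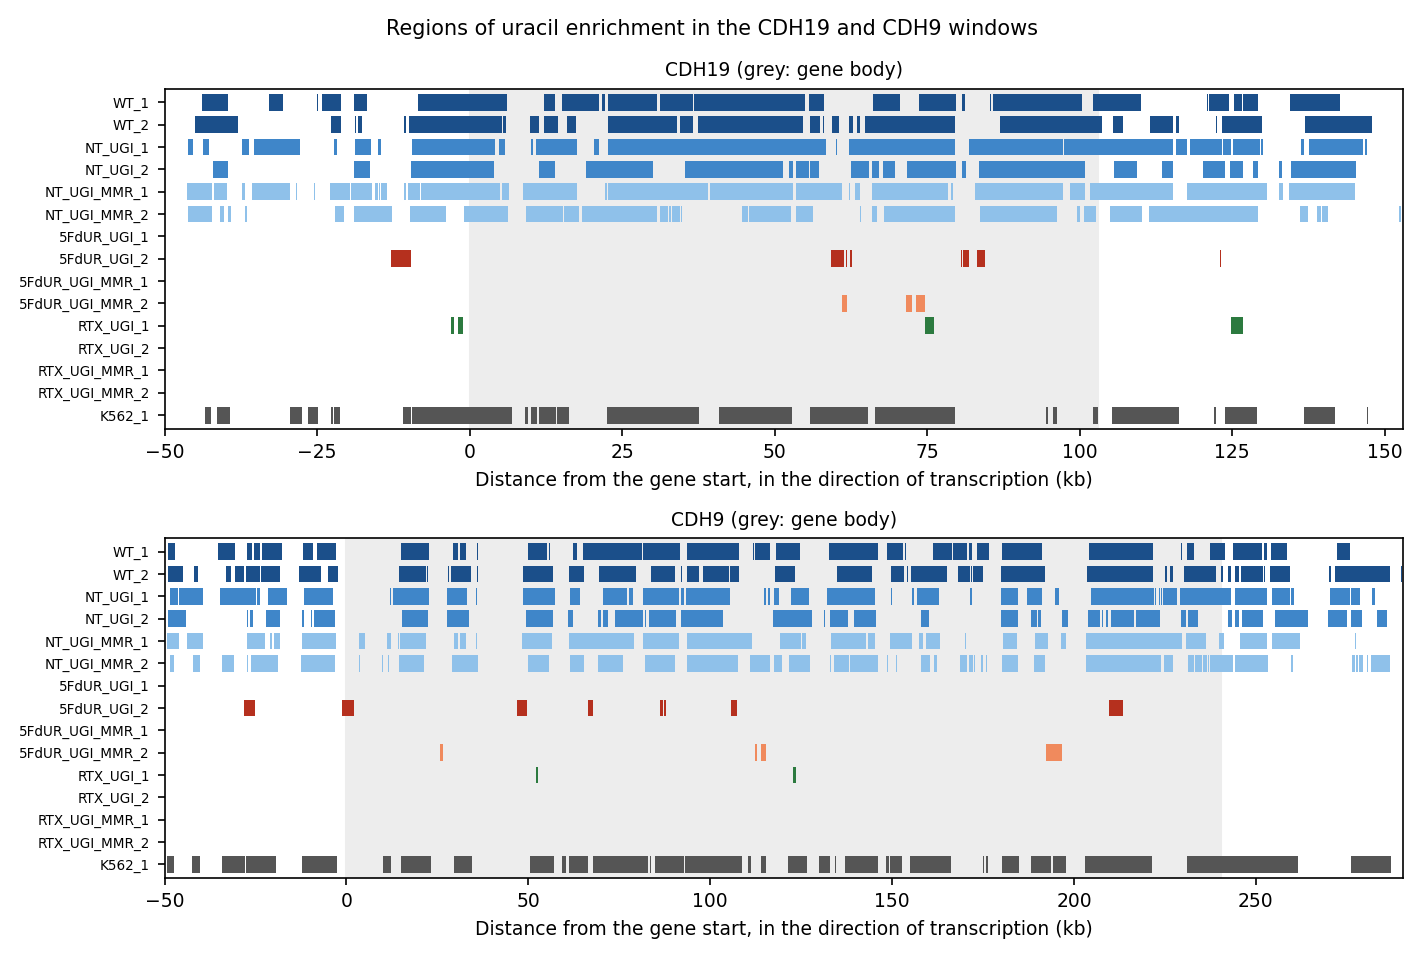
Regions of uracil enrichment in the windows of CDH19 and CDH9 (bars), 1 row for each library, by distance from the gene start in the direction of transcription (kb), with the gene body in grey. The 6 non-treated rows and K562 are filled over much of both windows, and the CDH19 start is covered in all 7 of them, while the 8 drug-treated rows hold few short regions or none.

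The members' coverage moved with the GC content of their windows. GC content ranged from 33.3% in CDH19 to 39.4% in CDH20, below the median of 44.3% over all windows. Across the 10 members, coverage in non-treated HCT116 cells fell with GC content (Pearson's r = -0.98, Spearman's rho = -0.98), and coverage in K562 did as well (r = -0.94, rho = -0.92). These are descriptions over 10 genes that share libraries and, in groups, a chromosome. The share of windows covered less in every drug-treated library was read in classes of GC content chosen after the values were seen. Below 36% GC it was 82.6% of 402 windows, and 6 of 6 members (CDH7, CDH9, CDH10, CDH12, CDH18 and CDH19). From 36% to under 38% GC it was 42.4% of 1497 windows, and the 1 member, CDH8. From 38% to under 40% GC it was 8.29% of 2497 windows, and 1 of 3 members, CDH11 but not CDH6 or CDH20. In the same 3 classes the median non-treated coverage over all windows was 37.4%, 18.8% and 8.36%. CDH7 lay below the median of its class and the other 5 members of that class above it, CDH8 lay above its median, and CDH6, CDH11 and CDH20 lay below theirs. Inside single windows the same order held. Bases covered in all 6 non-treated libraries had a GC content of 30.8% in CDH9, 31.7% in CDH18, 32.9% in CDH8 and 30.9% in CDH19. Bases covered in none of them had 39.3%, 38.2%, 38.4% and 38.9%. In CDH6 and CDH20 the bases covered in either 5FdUR_UGI_MMR library had 39.8% and 40.5% GC. Whether GC content has a part in the difference between drug-treated and non-treated cells was not tested.

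**Figure D3:**
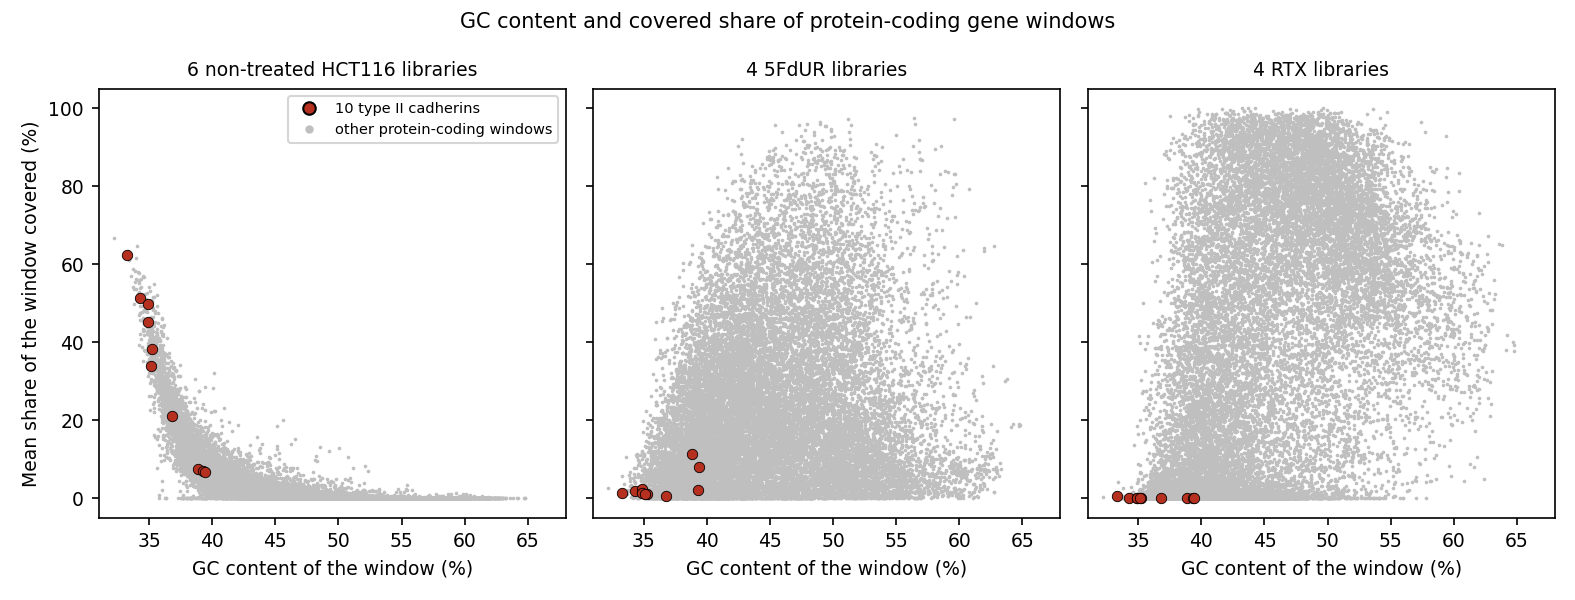
GC content of each of the 20033 protein-coding gene windows (horizontal axis, %) against the mean share of the window covered (vertical axis, %) in the 6 non-treated HCT116, the 4 5FdUR and the 4 RTX libraries. The 10 type II cadherins (red) follow the low GC edge of the grey cloud, from 62.4% at 33.3% GC down to 6.75% at 39.4% GC without drug, and after RTX they lie at 0.591% or less.

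Pooled over the 10 windows, the log2 values of member regions were a little above those of all regions without drug, and below them after drug treatment. The pooled mean is weighted by covered length, so that CDH12 and CDH18 count most without drug. Single members differed. In WT replicate 1, with a mean of 0.457 over all regions, CDH9, CDH10, CDH12, CDH18 and CDH19 were above it, at 0.490, 0.473, 0.458, 0.490 and 0.493. CDH6, CDH7, CDH8, CDH11 and CDH20 were below it, at 0.425, 0.418, 0.436, 0.390 and 0.386. The length-weighted mean log2 value of member regions was between 0.39 and 0.47 in the 6 non-treated libraries, and exceeded the mean of all regions of the same library by 0.01 to 0.03. In K562 it was 0.51, or 0.04 above the mean of all regions. In 5FdUR_UGI replicate 2 it was 0.21, against 0.30 over all regions. In 5FdUR_UGI_MMR replicates 1 and 2 it was 0.27 and 0.19, against 0.32 and 0.22. In RTX_UGI replicate 1 the only 7 kb of member regions had 0.28, against 0.43. The other 4 drug-treated libraries, 5FdUR_UGI replicate 1 and RTX_UGI replicate 2 and both RTX_UGI_MMR libraries, had no region in any of the 10 windows.

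5FdUR and RTX, which act on the same enzyme, were compared over 4 libraries each. As fluorouracil is detected too, coverage after 5FdUR is not a measure of uracil alone, and the 2 were not told apart. The genes were chosen with the values of all libraries known, those of 5FdUR and RTX included, so that the adjusted p-values here and in the comparisons of MMR status and UGI set a difference against the spread between libraries and are no independent support for it. Coverage was called higher after 5FdUR in 3 of the 10 members, CDH6, CDH20 and CDH11, and lower in none. Over all 19851 windows tested, 28.5% were called higher after 5FdUR and 53.1% lower. The count of 3 is thus near the share called higher over all windows. CDH6 was covered to 0, 1.06, 21.2 and 23.2% after 5FdUR, in the order used above, and had no region in any of the 4 RTX libraries. The difference was 11.4 percentage points (0.27 ± 0.04, SE, on the arcsine scale of the fit; limma, Benjamini-Hochberg adjusted p = 2.89e-05). CDH20 was covered to 0, 4.498, 7.32 and 20.3% after 5FdUR and had no region after RTX, a difference of 8.03 percentage points (limma, adjusted p = 0.00223). CDH11 was covered to 0, 3.01, 2.05 and 4.002% after 5FdUR and had no region after RTX, a difference of 2.27 percentage points (limma, adjusted p = 0.0121). The lowest log2 value of a region was 0.25 to 0.27 after RTX, but 0.14, 0.20 and 0.13 in the 5FdUR libraries that covered these genes. In those libraries the highest log2 value was 0.255, 0.231 and 0.203 in CDH11. It was 0.295, 0.325 and 0.239 in CDH20, and 0.157, 0.382 and 0.293 in CDH6. Regions below the RTX thresholds could not appear after RTX, so the values of 0 there are not like for like. In all 3 genes, 3 of the 4 5FdUR libraries were above all RTX libraries, and 5FdUR_UGI replicate 1 was at 0 as they were. In CDH8 and CDH18, which were not called, 3 of the 4 5FdUR libraries were above all RTX libraries too. For the other 7 members the differences were between 0.607 and 2.30 percentage points, with limma adjusted p-values from 0.146 to 0.585. Among windows from 38% to under 40% GC, 42.7% were called higher, against 3 of 3 members, and below 38% GC 42.5%, against 0 of 7 members. These classes were chosen after the values were seen and hold few members, so nothing is read from this split. The exact permutation test over the 4 against 4 libraries gave p = 0.143 for CDH6, CDH20 and CDH11 (two-sided), and the same for CDH8 and CDH18. The smallest value this test can give is 0.0286. This test pooled both MMR states, which the limma fit kept apart. At a common log2 value of 0.33 in all libraries, which is above the mean log2 value of the member regions in each of the 4 drug-treated libraries that had any, none of the 3 was called, and the difference of CDH6 was 0.605 percentage points (limma, adjusted p = 0.469). With regions of at least 5 kb, only CDH6 was called (CDH20, limma, adjusted p = 0.105), and with the gene body alone CDH11 was not (adjusted p = 0.0606).

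Within the MMR deficient cells, no member was called between 5FdUR and RTX, while 57.5% of all windows were. Within the MMR proficient cells, CDH6, CDH20 and CDH11 were called higher after 5FdUR (22.2, 13.8 and 3.03 percentage points; limma, adjusted p = 8.82e-06, 0.00122 and 0.0174), beside 25.1% of all windows. The CDH11 call was lost without 5FdUR_UGI_MMR replicate 2 (limma, adjusted p = 0.0969), RTX_UGI_MMR replicate 1 (0.0513) or RTX_UGI_MMR replicate 2 (0.0555). Both of these contrasts were added after the values were seen. Without 5FdUR_UGI replicate 1, 7 members were called higher after 5FdUR over both MMR states (CDH6, CDH9, CDH10, CDH11, CDH12, CDH18 and CDH20), and 4 within the MMR deficient cells (CDH7, CDH11, CDH18 and CDH20). There 5FdUR_UGI replicate 2 was then the lone 5FdUR library, and the fit assumed that it varies like the other conditions.

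After 5FdUR, CDH6 and CDH20 were covered more in the MMR proficient than in the MMR deficient libraries. CDH6 rose from 0 and 1.06% in 5FdUR_UGI to 21.2 and 23.2% in 5FdUR_UGI_MMR, by 21.7 percentage points (limma, adjusted p = 0.000198), and both libraries of the MMR proficient cells were above all others of HCT116. CDH20 rose from 0 and 4.498% to 7.32 and 20.3%, by 11.6 percentage points (limma, adjusted p = 0.0180). Its call was lost without 5FdUR_UGI replicate 1 (9.31 percentage points, adjusted p = 0.183) and without 5FdUR_UGI_MMR replicate 2 (5.07 percentage points, adjusted p = 0.182). CDH11 was 1.52 percentage points higher in MMR proficient cells, which did not pass the test (limma, adjusted p = 0.237). The other 7 members differed by -1.98 to 0.745 percentage points and were not called. Over all windows, 14.4% were called higher and 41.2% lower in the MMR proficient cells after 5FdUR. From 38% to under 40% GC 28.4% were called higher, against 2 of 3 members, and below 38% GC 26.3%, against 0 of 7 members. Nothing is read from this split, for the reasons given above. The lowest log2 values of 5FdUR_UGI_MMR (0.20 and 0.13) and 5FdUR_UGI (0.25 and 0.14) differ, and at the common log2 value neither gene was called (1.21 percentage points for CDH6, limma, adjusted p = 0.368, and 0 for CDH20).

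In CDH6 and CDH20, the regions of 5FdUR_UGI_MMR lay mostly at other places than those of non-treated cells. In CDH6 they covered 50 kb in replicate 1 and 54.6 kb in replicate 2, of which 19.1 kb were shared, or 22.3% of the 85.5 kb held by either. Of these 85.5 kb, 9.24% were also covered in any non-treated library. In CDH20 the replicates covered 23.6 and 65.5 kb and shared 8.40 kb, and 6.82% of the 80.7 kb held by either was covered without drug. In CDH6, replicate 1 covered 22.4% of the gene body and 19.6% of the flanks, and replicate 2 covered 15.6% and 33.5%. In CDH20 the gene body was covered to 9.80% and 11.8%, and the flanks to 1.80% and 39.3%. In the AT-rich members, the few bases covered by a drug-treated library fell more often on bases also covered without drug, for 76.5% of 16.2 kb in CDH19 and 74.3% of 55.6 kb in CDH12, but 9.10% of 86.8 kb in CDH6 and 6.55% of 88.6 kb in CDH20. These shares are to be read beside how much of each window was covered without drug in at least 1 library. That was 88.7% in CDH19, 73.4% in CDH7, 73.2% in CDH12, 51.5% in CDH8, 25.1% in CDH11, 20.9% in CDH6 and 21.7% in CDH20. The overlap was thus close to the window's own share in CDH12 and below it in every other member.

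**Figure D4:**
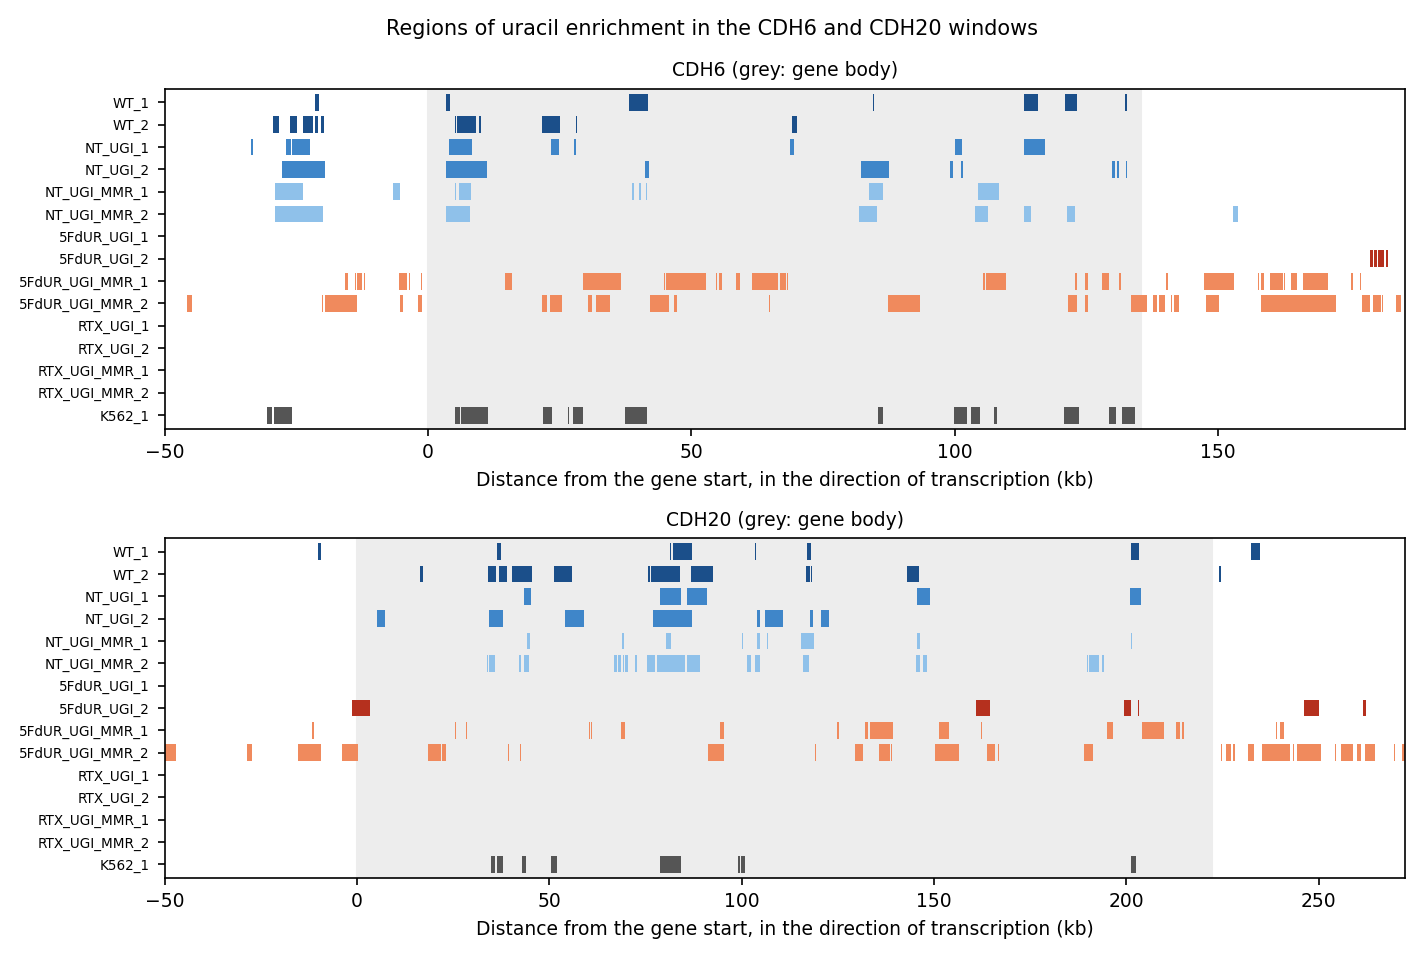
Regions of uracil enrichment in the windows of CDH6 and CDH20 (bars), 1 row for each library, by distance from the gene start in the direction of transcription (kb), with the gene body in grey. The 2 5FdUR_UGI_MMR rows (orange) hold 50 and 54.6 kb of CDH6 and 23.6 and 65.5 kb of CDH20, mostly beside the bars of the non-treated rows (blue), and the RTX rows are empty.

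After RTX, MMR status gave no called member, beside 17.7% of all windows called in either direction. The largest difference was -1.18 percentage points, in CDH19, where RTX_UGI replicate 1 alone had regions. The difference between the MMR effect after 5FdUR and that after RTX, a contrast added after the values were seen, was called in CDH6 (21.7 percentage points, limma, adjusted p = 0.00818), beside 6.05% of all windows called higher. This call was lost with only the drug-treated libraries in the fit (limma, adjusted p = 0.0890), with regions of at least 5 kb (0.0629) and at the common log2 value (0.6254). With only the drug-treated libraries, the windows called in either direction for this contrast fell from 3376 to 4. For CDH20 it was 11.6 percentage points and was not called (limma, adjusted p = 0.131). Without drug, neither MMR status (NT_UGI_MMR less NT_UGI) nor UGI (NT_UGI less WT) gave a called member, and 0% of all windows were called by limma. No member had an unadjusted p under 0.05 in these 2 contrasts. The differences ranged from -3.59 (CDH11) to 6.03 percentage points (CDH10) for MMR status and from -5.04 (CDH10) to 3.90 percentage points (CDH11) for UGI, where CDH10 spanned 36.2 to 56.3% over the 6 libraries.

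Other cadherins and their cytoplasmic partners, listed with earlier results known, are given beside the 10 genes. The remaining type II cadherins CDH5 (VE-cadherin of endothelium), CDH22 and CDH24 had no region in any of the 6 non-treated libraries. CDH5 was covered to between 25.6% and 96.5% and CDH22 to between 50.9% and 91.4% after drug treatment, and both were above all non-treated values in each of the 8 libraries. CDH24 was at 57.5, 10.05, 0 and 0% after 5FdUR and between 64.7% and 98.6% after RTX. Of the 5 type I cadherins, CDH2 (N-cadherin) was lower in every drug-treated library. It had 15.1% to 19.3% without drug, 0.174 to 11.01% after 5FdUR and no region after RTX. CDH3 (P-cadherin) was higher in every drug-treated library, with no region without drug. In 5FdUR_UGI_MMR replicates 1 and 2 it had only 2.25 and 0.105%, at log2 values of at most 0.229 and 0.137. Regions under 0.25 could not appear without drug, so these 2 values are not like for like. CDH1 (E-cadherin), the main cadherin of epithelia, whose window overlaps that of CDH3, was at 0 to 1.009% without drug, at 0 to 0.605% after 5FdUR and at 24.4% to 45.8% after RTX. Of CDH13, CDH16 and CDH17, only CDH17 was separated, and higher. Of the 7 catenins, CTNNA2 and CTNNA3 (α-catenins of neurons and of heart and testis) were lower in every drug-treated library and CTNNA1 higher. For CTNNA1 the separation was narrow, at 0.236% in 5FdUR_UGI_MMR replicate 2 against 0.118% in WT replicate 1. The log2 values behind the 0.236% were at most 0.149, so the same limit holds. Between 5FdUR and RTX, coverage of CDH24, CDH1, CDH3, CDH15, CDH16, CDH17, CTNNA1 and JUP was called lower after 5FdUR, and that of CDH22, CDH2, CDH4, CDH13, CTNNA2, CTNNA3, CTNNB1 and CTNND2 higher. CDH5 and CTNND1 were not called. Over all windows tested, 28.5% were called higher after 5FdUR and 53.1% lower. Of all 20033 windows, 6110 were higher and 1202 lower in every drug-treated library, so both directions are common.

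The 5 gene windows nearest the members' mean coverage over the 15 libraries, by Euclidean distance, were GPC5, ADGRB3, SYT1, CHORDC1 and LRRC7, with distances of 6.85 to 9.16 percentage points. They lie on chromosomes 13, 6, 12, 11 and 1. Their GC content was between 35.4% and 35.9%, against a mean of 36.2% for the 10 members. Their mean coverage without drug was 31.8% to 34.7%, against 32.4% for the members' mean, and 1.04% to 2.31% after 5FdUR, against 3.14%. SYT1 was the one with the most coverage after RTX, at 1.93%. The members themselves ran from 6.75% (CDH20) to 62.4% (CDH19) without drug, so these windows are like their mean and not like each member. The windows were picked by these coverage values, so their closeness follows from the choice.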

How the data were processed

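U-DNA-Seq libraries of 7 HCT116 conditions with 2 replicates each and 1 K562 library were used. The members and gene lists were chosen with earlier results of these data known. The authors aligned reads to GRCh38 with BWA (0.7.17-r1194, per the labels), sorted them with SAMtools (1.9-50), handled duplicates with Picard, dropped blacklisted segments and reads without a unique place, and made smoothed coverage with deepTools (3.2.1). The authors deposited, for each library, regions above a log2 threshold with a log2 value (enriched over input), and tuned the threshold so that total length was similar within a condition. This column is unnamed and was taken for the region's mean log2 ratio. Total length and the lowest log2 value thus differ between libraries by choice. Depth is unknown, as the region files hold no counts. Which sequencing platform served each library is not given in the sources used here, so it was not examined. Input, mock pull-downs and coverage tracks were not used here.

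The covered share of 20033 protein-coding gene windows (GENCODE 44, 50 kb on each side, chromosomes 1 to 22, X and Y) was calculated with Python 3.11.15 and NumPy 2.4.6. The arcsine of the square root of the share was fitted with limma (3.58.1 under R 4.3.3) over the 14 HCT116 libraries, with 7 condition means and a trend in eBayes. Windows with at least 1% covered in at least 2 libraries were tested (19851), with Benjamini-Hochberg adjustment over all of them and calls at 0.05. As many RTX values are 0, the shared spread can understate that of the 5FdUR libraries. Exact permutation tests were two-sided. The fit was tested on simulated data. Named genes are the 10 members, other cadherins and catenins, the 5 windows nearest in coverage, and the segments by the rule given with them, of which some are not reported here. Alternatives were other windows, regions of at least 5 kb, a common log2 value, other scales, merged files made by the authors, no filter, fewer libraries, a replicate block and leaving out each replicate.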

Additional observations from a re-analysis of the deposited data

Results flagged for a closer look

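In RTX_UGI replicate 1, CDH19 was covered to 2.36%, CDH9 to 0.440%, CDH12 to 0.0416% and CDH18 to 0.0166%, while the other 3 RTX libraries had no region in these windows, which marked this library by Dixon's test in each of the 4 genes. As those 3 values are exactly 0, any region at all would have been marked, and the test says nothing about these 4 values. CDH7 was covered to 4.17% in 5FdUR_UGI replicate 2, against 0 to 0.208% in the other 3 5FdUR libraries, and was marked by the same test. This set pools both MMR states and also holds tied values of 0, in 5FdUR_UGI replicate 1 and 5FdUR_UGI_MMR replicate 1. The lowest log2 values of a region in those libraries were 0.25 and 0.20. The CDH7 regions of 5FdUR_UGI replicate 2 reached at most 0.194, so nothing is read from this mark. The test was run on 24 sets of values with any spread. Chance alone marks about 1 in 20 sets, a rate that does not hold for sets tied at 0.

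The MMR effect in CDH6 was larger after 5FdUR than after RTX by 21.7 percentage points (limma, adjusted p = 0.00818). The difference was not called with regions of at least 5 kb (9.85 percentage points, adjusted p = 0.0629), at a common log2 value (1.21 percentage points, adjusted p = 0.6254) or with only the drug-treated libraries in the fit (21.7 percentage points, adjusted p = 0.0890).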

How the results depend on the processing

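The count of members covered less in every drug-treated library (8) was 7 with the gene body alone or regions of at least 5 kb, 10 at the common log2 value of 0.33, and 8 without any single replicate. The count called between 5FdUR and RTX (3) was 1 with regions of at least 5 kb, 0 at the common log2 value, 5 with the percentile within the library, and 3 to 7 when replicates were left out, the 7 without 5FdUR_UGI replicate 1. The count for MMR status after 5FdUR (2) was 1 with the gene body alone or with regions of at least 5 kb, 0 at the common log2 value, 4 with the percentile, and 1 to 3 when replicates were left out. It was 1 without 5FdUR_UGI replicate 1 or 5FdUR_UGI_MMR replicate 2, and 3 without 5FdUR_UGI replicate 2. The cause of these shifts was not tested, but the common value removes the regions of lower log2 value by construction. For MMR status after RTX, MMR status without drug and UGI without drug the count was 0 under every alternative. With the replicate block the counts were 8, 3, 2, 0, 0 and 0, the same as without it. Deviations of libraries with equal replicate numbers correlated between -0.46 and 0.32 over 21 pairs of conditions, with a median of -0.0079. The replicate number thus showed no common pairing over all conditions. Whether some conditions shared a batch was not tested. Over all windows, calls for MMR status after 5FdUR (11036) fell to 2861 at the common log2 value, and those after RTX (3514) ranged from 367 with the percentile to 5791 without 5FdUR_UGI replicate 1. Of the further values, none changed sign, 20 moved by more than the spread (1 SD) or, for counts, by over 1.5 times, and 23 lost their call. The drug-treated less non-treated difference of CDH6 (-1.82 percentage points) stayed within its wide spread at -0.0495 with regions of at least 5 kb and -6.43 at the common log2 value, and that of CDH20 (-2.74) at -6.34 with the gene body alone and -1.15 with regions of at least 5 kb.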
